A study of Mus musculus with 3 samples.

Results

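The liver X receptor and fatty acid synthesis genes were followed as a set of 10 named genes, Nr1h2, Nr1h3, Srebf1, Abca1, Abcg1, Acaca, Fasn, Scd1, Scd2 and Scd3, in plasmacytoid dendritic cells given one of 2 plant compounds. They were found by gene symbol, and 7 of the 10 had a named probe set, out of 19505 named genes. Srebf1, Nr1h2 and Scd2 were not analysed here. The set was chosen by the log2 differences of its genes in these same arrays, so the levels and differences are given as a description. The cells were grown from bone marrow of wild-type male BALB/c mice, aged 4 to 5 weeks, in medium holding 100 ng/mL of Flt3 ligand over 6 to 9 days, and were sorted after maturation by CpG oligodeoxynucleotides. All 3 groups share these steps. The 3 groups, of 1 array each, were control cells, cells treated with astragaloside IV (a plant saponin from Astragalus) and cells treated with oxymatrine (a quinolizidine alkaloid from Sophora). Treatment lasted 12 h, after which the chemokine CCL21, which acts through CCR7, was applied for 1 h. The study asked how the compounds restrain migration of these cells. The labels state no dose, and leave unsaid what the control cells were given, CCL21 included, so compound and CCL21 cannot be told apart in a difference from control. How many mice gave the marrow for each array is not stated.

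Liver X receptors are nuclear receptors that sense oxidised cholesterol. LXR alpha, encoded by Nr1h3, and LXR beta, encoded by Nr1h2, pair with a retinoid X receptor on DNA and switch on the cholesterol exporters Abca1 and Abcg1 and the gene for the lipogenic transcription factor SREBP-1, Srebf1. SREBP-1 in turn raises the enzymes that make fatty acids: acetyl-CoA carboxylase (Acaca) makes malonyl-CoA, fatty acid synthase (Fasn) builds palmitate from it, and stearoyl-CoA desaturases (Scd1, Scd2, Scd3) add a double bond. In dendritic cells and macrophages this pathway is known for setting membrane lipid composition and cholesterol load.

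The start-site sequences are shown for 3 genes because Abca1 and Fasn share a long run and Scd3 had the largest measured differences. RefSeq windows on GRCm38.p6 matched 5 of the 7 measured genes (Nr1h3, Abca1, Acaca, Fasn and Scd3). Each sequence below is the 250 bases before the annotated start, read 5′ to 3′ on the gene's strand, and capitals mark the run of 18 bases that Abca1 and Fasn have in common. The Abca1 window is chr4:53159896-53160145 on the minus strand, the Fasn window chr11:120824548-120824797 on the minus strand, and the Scd3 window chr19:44203038-44203287 on the plus strand.
Abca1: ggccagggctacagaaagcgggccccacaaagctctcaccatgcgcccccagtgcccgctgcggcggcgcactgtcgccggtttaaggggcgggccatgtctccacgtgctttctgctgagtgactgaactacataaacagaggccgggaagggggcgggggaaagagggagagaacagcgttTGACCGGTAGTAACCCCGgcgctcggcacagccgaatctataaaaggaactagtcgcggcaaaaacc
Fasn: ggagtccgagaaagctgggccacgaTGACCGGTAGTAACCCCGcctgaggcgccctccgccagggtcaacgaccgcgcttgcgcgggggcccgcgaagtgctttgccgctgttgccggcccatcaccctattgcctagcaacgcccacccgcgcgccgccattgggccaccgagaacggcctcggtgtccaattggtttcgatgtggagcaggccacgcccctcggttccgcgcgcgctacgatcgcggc
Scd3: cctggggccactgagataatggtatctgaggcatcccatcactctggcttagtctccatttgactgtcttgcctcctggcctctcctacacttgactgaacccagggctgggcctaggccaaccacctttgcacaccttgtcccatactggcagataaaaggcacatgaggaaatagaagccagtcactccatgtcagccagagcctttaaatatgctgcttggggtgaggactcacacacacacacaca
The shared run lay at -67 to -50 from the start in Abca1 and at -225 to -208 in Fasn. It was the longest run common to any pair of these genes on either strand, the next longest being 9 bases. Searched on both strands, TGACCGGTAGTAACCCCG was in 2 of 32851 RefSeq windows of this length, 0.00609%, which are these 2. Read on the other strand it is CGGGGTTACTACCGGTCA, in which GGTTA and CGGTCA stand 4 bases apart. Pairs of such half-sites at that spacing (the DR4 arrangement) are the kind of element that liver X and retinoid X receptors are known to bind. The letters GGTTA and CGGTCA with any 4 bases between, picked after the run had been seen, were in 4 windows, 0.0122%. A stricter direct repeat, the half-site AGGTNA repeated after any 4 bases, was in 0.0913% of windows and in none of these genes' windows, as was the case for the sterol regulatory element TCACNCCAC (1.05% of windows). The E-box CACGTG, in 6.02% of windows, was found once in Abca1, at -147 to -142. The CCAAT box, CCAAT, in 33.8% of windows, was found in Fasn at -90 to -86, -62 to -58 and -59 to -55, the last pair overlapping on opposite strands. These matches describe letters and not binding.

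The arrays were close to one another, with Pearson's r between 0.9967 and 0.9975 across 10674 genes above a background level of 5.28 on the log2 scale, set so that 95% of 1399 normally silent sensory (olfactory and vomeronasal) receptor genes fall under it. All values are log2 RMA levels, 1 array per group, so no difference below has a replicate error or a test. The SD printed beside a difference is taken over all genes of like level in that comparison; it gives the scatter of genes at that brightness and is no replicate error. Of 17 measured markers of plasmacytoid dendritic cells, 16 were above background in each array, among them Siglech and Tcf4. So were 13 of 14 measured monocyte and macrophage markers in each array.

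The receptor gene Nr1h3 was at 11.62 in the control array, 11.46 under astragaloside IV and 11.47 under oxymatrine. Control was the highest array, and the treated arrays lay 0.01 apart. The differences from control were -0.16 with astragaloside IV, where genes of that level had an SD of 0.11, and -0.15 with oxymatrine, where the SD was 0.16. Of its partners, 11 of 12 measured retinoid X receptors and co-regulators were above background. With astragaloside IV 3 of the 11 were lower, 3 higher and 5 equal to control, and with oxymatrine 5 were lower, 2 higher and 4 equal, with a median of 0 in both. Over all genes above background 40.8% were lower in the first comparison and 46% in the second, also with a median of 0. Rxrb, a retinoid X receptor that pairs with the liver X receptors, was at 9.47 in the control array, 9.47 under astragaloside IV and 8.58 under oxymatrine. Its oxymatrine array stood apart by -0.89. Rxrb was the 1 partner of 11 at 1.5-fold or more in either comparison with control. Of all genes above background 2.13% were that far apart with astragaloside IV and 3.31% with oxymatrine. Rxra, another of these partners, was the lowest with astragaloside IV, at 6.81 in the control array, 6.47 under astragaloside IV and 6.81 under oxymatrine. Highest were Gps2, a subunit of the co-repressor complex, by 0.12 with astragaloside IV, and Nrip1, a nuclear receptor co-regulator, by 0.33 with oxymatrine.

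The cholesterol exporter gene Abca1 was at 9.32 in the control array, 9.04 under astragaloside IV and 9.51 under oxymatrine. The treated arrays lay on either side of control, -0.28 with astragaloside IV (SD at its level 0.18) and 0.19 with oxymatrine (SD 0.20). The treated arrays were thus 0.47 apart, astragaloside IV being the lower, which is -2.36 times the SD of genes of that level. In that comparison 5.17% of the 10674 genes were at least as far apart, and 0 of the 7 genes measured reached 1.5-fold, against a background of 2.58%. Abcg1, which exports cholesterol to high-density lipoprotein, was at 12.82 in the control array, 12.62 under astragaloside IV and 12.79 under oxymatrine. The astragaloside IV array was the low one, by -0.20 from control (SD 0.12), while oxymatrine differed from control by -0.04 (SD 0.15), a sign that turned after centring on the median or quantile normalisation.

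Other target genes of liver X receptors were listed with earlier results of these data known, so nothing is read from their counts. With astragaloside IV most had values slightly below control. Of 13 measured, 11 were lower and 2 higher; among the 10 above background all 10 were lower, with a median of -0.13, where 40.8% of all genes above background were below 0 and their median was 0. The differences ran from -0.27 for Mertk, a receptor for apoptotic cells, to -0.001 for Lpcat3, which remodels phospholipids. None reached 1.5-fold, where 2.13% of all genes above background did. After centring the arrays on their medians, quantile normalisation and lowess centring 8, 8 and 9 of the 10 were lower, where 35.9%, 38.5% and 42.6% of all genes were. Apoe, the apolipoprotein that accepts exported cholesterol, was at 13.83, 13.70 and 13.70 in control, astragaloside IV and oxymatrine. With oxymatrine 5 of the 10 were lower, 3 higher and 2 equal, with a median of -0.02, where 46% of all genes were below 0. Mertk was again the lowest, by -0.45, and Lpcat3 the highest, by 0.18. Many of these targets are macrophage genes. The mean over 14 monocyte and macrophage markers was 9.83 in the control array, 9.83 under astragaloside IV and 9.85 under oxymatrine, with C1qa at -0.51 and Timd4 at 0.61 as the extremes with astragaloside IV. Of 13 neutrophil markers 3 were above background by their mean (Lcn2, Csf3r and Mmp8), and these were lower with astragaloside IV by -0.26 to -0.51. The mean over the 13 was 5.63 in the control array, 5.50 under astragaloside IV and 5.69 under oxymatrine. Of 9 T and NK cell markers 2 were above background, and both were lower with astragaloside IV, Il2rb by a difference of -1.01 and Cd5 by -0.45. Cd3d, Cd3e, Cd3g, Nkg7, Ncr1 and Klrb1c were below background in all 3 arrays. Whether Il2rb and Cd5 came from T or NK cells was not tested. Of 10 markers of conventional type 1 dendritic cells 8 were above background, of which 5 were lower, 2 higher and 1 equal, from Itgae at -0.73 and Gcsam at -0.61 to Tlr3 at 0.53, with a mean of -0.17. With oxymatrine Il2rb differed by -0.84 and Cd5 by -0.45, and the type 1 markers had a mean of -0.25. Over the markers above background, the mean difference with astragaloside IV was -0.08 for plasmacytoid and 0.03 for conventional type 2 dendritic cells. It was -0.02 for B cells, 0.007 for adipocytes and marrow stroma, and 0.02 for monocytes and macrophages. The part of macrophages, or of any other of these cell types, in the lower target genes was not tested. In bulk RNA fewer cells of a type and less RNA per cell cannot be told apart.

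**Figure D1:**
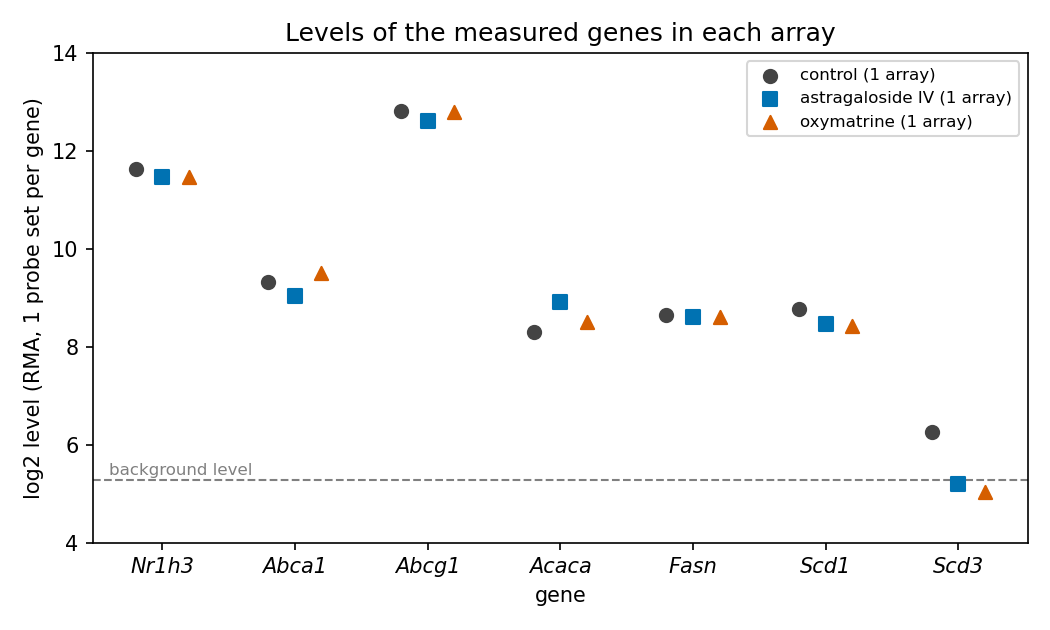
Log2 RMA level of each measured gene (vertical axis) in the control, astragaloside IV and oxymatrine arrays, 1 point per array, with the background level of 5.28 dashed. The 3 arrays lie close for Fasn (8.61 to 8.64), while Scd3 is above background in control alone. Heights of different genes are not comparable, since each has its own probe set.

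Acaca, the gene of the rate-limiting step of fatty acid synthesis, was higher than control in both treated arrays. It was at 8.31 in the control array, 8.92 under astragaloside IV and 8.50 under oxymatrine. Control was the lowest array and astragaloside IV the highest. The difference of 0.61 with astragaloside IV is 1.52-fold and 2.89 times the SD at that brightness (0.21), and 193 of 10674 genes, 1.81%, lay at least as far from control in either direction. With oxymatrine the difference was 0.19, within the SD of 0.23, and the treated arrays were 0.42 apart (SD 0.21). Fasn, the next enzyme, was the steadiest gene of the set, at 8.64 in control and 8.61 in each treated array. The treated values were identical, 0.02 below control, and the sign of that small difference turned with oxymatrine after centring on the median, quantile normalisation or lowess centring, and with astragaloside IV after quantile normalisation.

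Of the stearoyl-CoA desaturases, Scd1 and Scd3 were above background in at least 1 array, and both were lower in the treated arrays than in control. Scd1, the main desaturase of most tissues, was at 8.77 in the control array, 8.47 under astragaloside IV and 8.43 under oxymatrine. Control was the high array, and the treated arrays lay 0.04 apart. The differences from control were -0.30 with astragaloside IV (SD 0.21) and -0.34 with oxymatrine (SD 0.23), and 11.6% and 12.9% of the 10674 genes lay at least as far from control. Scd3, a paralogue best known from skin sebaceous glands, was at 6.26 in the control array, 5.20 under astragaloside IV and 5.03 under oxymatrine. Both treated values were below background, and the gene's mean of 5.50 passed the background level only through control. The measured differences were -1.07 and -1.23 (SD 0.29 and 0.32), and the background level allows only a bound, at least 1.98-fold lower in each treated array. How far the Scd1 and Scd3 probe sets each detect the other transcript was not tested. In RefSeq order Scd3, Scd2, Scd4 and Scd1 are adjacent genes on chromosome 19. Scd4 was below background in all 3 arrays, at 3.23, 3.03 and 3.19 in control, astragaloside IV and oxymatrine. On the other side of Scd3, the nearest genes above background were Bloc1s2 (11.81, 11.81 and 11.74 in that order) and Cwf19l1 (8.75, 8.74 and 8.75), which differed from control by at most 0.07 in size.

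**Figure D2:**
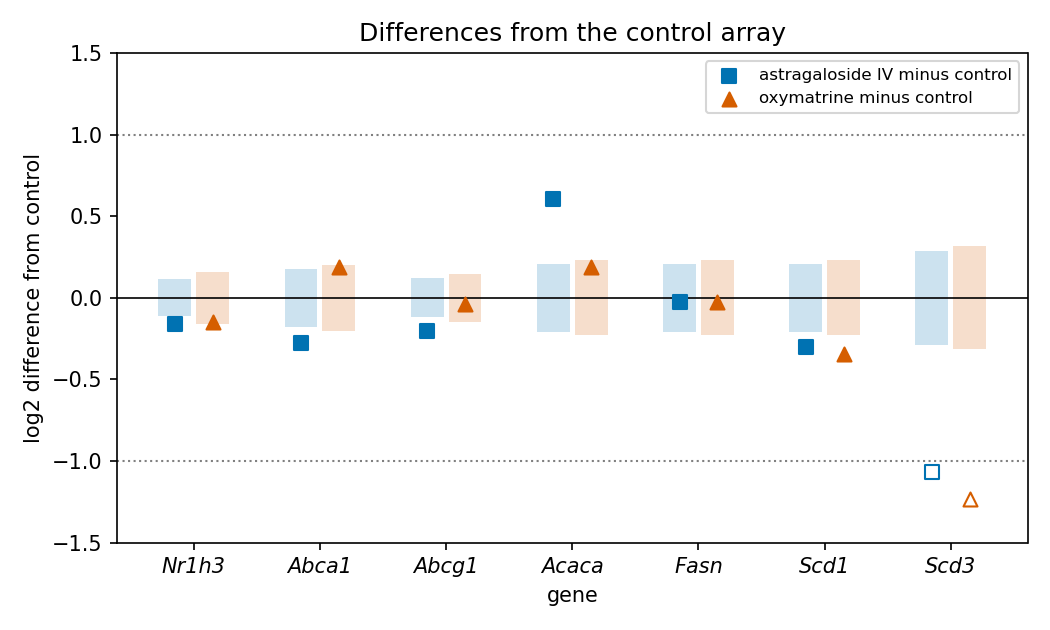
Log2 difference from the control array for each measured gene, squares for astragaloside IV and triangles for oxymatrine, with open symbols where the treated value is below background. Shaded bars span 1 SD either side of 0 over genes of similar level, and dotted lines mark 2-fold. Scd3 lies below the lower line in both arrays, and Acaca with astragaloside IV is the highest point at 0.61.

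Counted over the 7 measured genes, 6 were lower and 1 higher than control with astragaloside IV, where 40.8% of all genes above background were lower and 31.4% higher. Their median was -0.20. With oxymatrine 5 were lower and 2 higher, where 46% of all genes were lower and 29.7% higher, and their median was -0.04. After centring on the median, or after quantile normalisation, the oxymatrine split was 3 lower and 4 higher, with medians of 0.01 and 0.004, where 63.3% and 57.3% of all genes were higher. Those steps moved the median over all genes from 0 to 0.05 and 0.03. By size, the deposited values of 1 of 7, Scd3, were 2-fold or more apart in each comparison with control, against 0.197% of 10674 genes with astragaloside IV and 0.281% with oxymatrine, counted the same way. Its bound of 1.98-fold does not reach 2-fold, so none of the 7 was 2-fold apart on values above background in both arrays. At 1.5-fold there were 2 with astragaloside IV, Scd3 and Acaca, against 2.13%, and 1 with oxymatrine, Scd3, against 3.31%, and the bound of Scd3 passes 1.5-fold. Since the genes were chosen with these differences known, nothing is read from these counts. Both comparisons use the same control array. Between the treated arrays 3 genes were lower with astragaloside IV, 3 higher and 1 equal, with a median of 0, where 32.5% of all genes were lower and 40.7% higher.

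Of 32 measured enzymes of fatty acid supply, elongation, desaturation and activation, 25 were above background, and none of them was 1.5-fold apart in either comparison, where 2.13% of all genes were with astragaloside IV and 3.31% with oxymatrine. With astragaloside IV 16 were lower, 5 higher and 4 equal, with a median of -0.05, where 40.8% of all genes were lower and the median was 0. They ran from Hsd17b12, an enzyme of the elongation cycle, at -0.36 to Mlycd, which breaks down malonyl-CoA, at 0.17. With oxymatrine 13 were lower, 6 higher and 6 equal, with a median of -0.03, where 46% of all genes were lower. After centring on the median 12 were lower and 13 higher, where 63.3% of all genes were higher. The extremes were Elovl6, which elongates palmitate, at -0.38 and Acacb, the mitochondrial acetyl-CoA carboxylase, at 0.29. Elovl6 was at 8.28 in the control array, 8.21 under astragaloside IV and 7.91 under oxymatrine, so the oxymatrine array was the low one. Acacb, the paralogue of Acaca, was near background at 5.83, 5.90 and 6.12 in the same order. Acly, which supplies cytosolic acetyl-CoA and was picked for its place in the pathway after its values were seen, was at 12.68, 12.63 and 12.51.

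The list for SREBP control also holds Srebf2, itself an SREBP gene, and Mlx and Mlxipl, which belong to the carbohydrate-responsive factor. In this list 8 of 9 measured genes were above background. With astragaloside IV 5 were lower (beside 40.8% of all genes), 2 higher and 1 equal, with a median of -0.04, from Insig2, which retains the SREBP precursor, at -0.29 to Mlx, a partner of the carbohydrate-responsive factor, at 0.10. With oxymatrine 4 were lower (beside 46% of all genes), 2 higher and 2 equal, with a median of -0.02, from Fbxw7, which targets nuclear SREBP for degradation, at -0.26 to Mlx at 0.03, and after centring on the median 3 were lower and 5 higher, where 63.3% of all genes were higher. Srebf2, the paralogue of Srebf1 that drives cholesterol synthesis, was at 15.40, 15.37 and 15.40 in control, astragaloside IV and oxymatrine, and is named for its kinship after its values were seen.

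The glycerolipid list holds genes of synthesis from fatty acyl-CoA, and also the lipases Pnpla2, Lipe and Mgll, which break glycerolipids down. Its counts therefore mix both directions. Pnpla2, at 0.19 in both comparisons with control, is among the higher genes, Lipe is above background and Mgll is not. Of the 17 listed genes measured, 8 were higher, 6 lower and 3 equal with astragaloside IV, with a median of 0. Among the 14 above background 8 were higher, 4 lower and 2 equal, with a median of 0.09, where 31.4% of all genes were higher and 40.8% lower. After centring on the median, quantile normalisation and lowess centring 10 of the 14 were higher, where 64.1%, 60.9% and 57.4% of all genes were. Agpat4, an acyltransferase, was the highest at 0.28. Dgat1, which makes triacylglycerol, was at 6.10 in the control array, 5.29 under astragaloside IV and 5.87 under oxymatrine. Its astragaloside IV value was the low one, by -0.81, and lay just above background. With oxymatrine 5 were lower, 5 higher and 4 equal, with a median of 0, from Gpam, the first acyltransferase of the pathway, at -0.37 to Agpat3 at 0.20, where 29.7% of all genes were higher. After centring on the median, quantile normalisation and lowess centring 10, 9 and 9 were higher, where 63.3%, 57.3% and 55.3% of all genes were.

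Of 17 other ABC transporters of subfamilies A and G, 7 were above background. Abcg4, a sterol transporter, was at 5.82 in the control array, 4.84 under astragaloside IV and 5.30 under oxymatrine. The astragaloside IV value was below background, which gives a bound of at least 1.46-fold lower, and the oxymatrine difference was -0.52. Abca5 had the highest difference in both treated arrays, 0.10, and was near background at 5.39 in control and 5.48 in each treated array. The list medians were -0.02 with astragaloside IV (4 lower, 1 higher, 2 equal, beside 40.8% of all genes lower) and 0 with oxymatrine (3 lower, 1 higher, 3 equal, beside 46%). After centring on the median 3 were lower and 4 higher in each, where 64.1% and 63.3% of all genes were higher. Fatty acid oxidation genes, which burn the products of this pathway, had 17 of 19 measured above background. With astragaloside IV, where 40.8% of all genes were lower, 7 were lower, 5 higher and 5 equal, with a median of 0, from Acaa2, the thiolase of the last step, at -0.40 to Echs1, the enoyl-CoA hydratase, at 0.22. With oxymatrine 12 were lower, 4 higher and 1 equal, with a median of -0.04, from Hadhb at -0.35 to Echs1 at 0.22, where 46% of all genes were lower and 29.7% higher. Centring on the median moved the median over all genes from 0 to 0.05 with oxymatrine. After it 7 were lower and 10 higher, where 36.7% and 63.3% of all genes were.

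**Figure D3:**
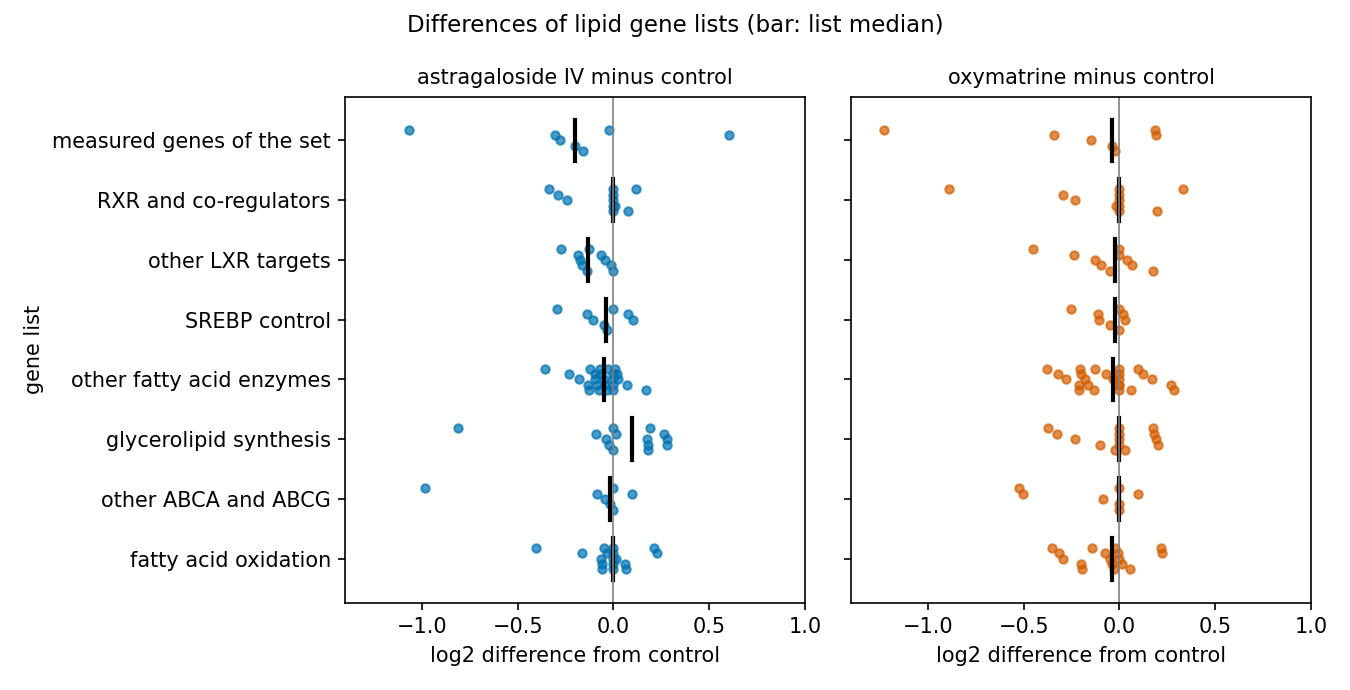
Log2 difference from control of each gene above background, by gene list, in the astragaloside IV array (left) and the oxymatrine array (right), with 1 point per gene and a black bar at the list median. Medians lie between -0.20 and 0.09 on the left and between -0.04 and 0 on the right, and single genes such as Scd3, Rxrb, Dgat1 and Abcg4 lie far from their list.

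The 5 genes whose 2 differences from control lay nearest to those of Scd3, by Euclidean distance over the 3 arrays, were Abl1, Ets1, Gja1, Hvcn1 and Qpct, in alphabetical order. Both treated values of Scd3 were below background, so each of these distances rests on values without a measured level, and neither the distances nor their order is given. Hvcn1, a proton channel, was above background throughout, at 8.56 in the control array, 7.52 under astragaloside IV and 7.41 under oxymatrine. Ets1, a lymphoid transcription factor, was also above background, at 6.46, 5.45 and 5.47 in the same order. Abl1, Gja1 and Qpct had both treated values below background. Nearest to Acaca were Apol9b (0.01), Fkbp7 (0.03), Ttll1 (0.06), Cmc2 (0.07) and Wdr5b (0.08). Ttll1, a tubulin-modifying enzyme, was at 8.45 in the control array, 9.04 under astragaloside IV and 8.69 under oxymatrine, while Apol9b and Fkbp7 had control values below background, so their distances are not between measured levels. This likeness rests on 3 arrays and is only a description.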

How the data were processed

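RNA of 3 samples was measured on whole-transcript expression arrays, 1 array per group. The values that the authors deposited are on a log2 scale and come from RMA (background correction, quantile normalisation, median polish), per the submitters' processing notes; software and build were not given in the sources used here. Their range, 1.78 to 19.7, fits a log2 scale. Median polish gives many identical values: 27.8% of genes were equal in control and astragaloside IV. Of 28846 probe sets, 19572 were named through the platform annotation; with several for a gene, the brightest was used.

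Differences of deposited log2 values were computed, with no test, at thresholds of 2-fold and 1.5-fold, for genes whose mean reached 5.28. The SD at a level came from 20 bins of equal size. A treated value below that level gave a bound against it. The members and lists were chosen with earlier results of these data known. Named by rule were all members, each list's extremes and genes at 1.5-fold, and the 5 genes likest to Scd3 and Acaca. Among the genes named outside this rule were Apoe, Acly, Srebf2, several cell-type markers and the neighbours of Scd3. The number of arrays limits the precision. Calculations were tested on simulated data. Python 3.11.15, numpy 2.4.6, pandas 2.3.3, statsmodels 0.14.6 and matplotlib 3.10.9 were used.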

Additional observations from a re-analysis of the deposited data

How the results depend on the processing

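With 1 array per group no replicate could be left out, and no paired analysis was possible because no group has a second sample. The settings tried were quantile normalisation, centring on the median or on a lowess curve (fraction 0.3), no level filter, the 99th percentile filter (a log2 level of 5.87), the mean of probe sets, and thresholds of 1.5-fold and 3-fold. The level filters and the mean of probe sets cannot move a single-gene difference here, since each measured gene of the set has 1 probe set. Under the rescalings, single-gene differences moved by at most 0.08 in size, less than the SD at each gene's level. Sign turned for 2 of 21 after centring on the median, 4 of 21 after quantile normalisation and 1 of 21 after lowess centring. These 7 were differences of Fasn, Abcg1 and Scd1, all below 0.06 in size.

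Counted on deposited values, background or not, the genes past the threshold with astragaloside IV were 1 (Scd3, whose bound of 1.98-fold does not reach 2-fold), and became 2 at 1.5-fold, 0 at 3-fold and 0 under the 99th percentile filter, which left out Scd3. With oxymatrine it was 1, and became 0 at 3-fold and 0 under that filter. For oxymatrine the 5 lower and 2 higher genes became 3 and 4 after centring on the median and 3 and 4 after quantile normalisation. Quantile normalisation also made 2 genes higher with astragaloside IV in place of 1, and 5 genes lower in astragaloside IV than in oxymatrine in place of 3. Centring on the median moved the median over all genes from 0 to 0.02 with astragaloside IV and 0.05 with oxymatrine. Genes equal to control on deposited values were then counted as higher. Counts of lower and higher genes after that step hold this shift.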
